A study of Homo sapiens with 6 samples.

Results

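The NRF2 antioxidant target genes are a set of 10 stress-response genes, HMOX1, NQO1, GCLM, GCLC, TXNRD1, SRXN1, SLC7A11, FTH1, FTL and OSGIN1. They were taken by gene symbol from the 41471 symbols of a CDK16 knockdown experiment and the 34157 symbols of a rebastinib (Reb) experiment, and all 10 were found in both. The cells were MDA-MB-231, a triple-negative breast cancer line of human origin, and their mRNA was sequenced in 6 libraries. In the knockdown experiment, cells stably carried a lentiviral scramble shRNA, CDK16-sh1 or CDK16-sh2, each a hairpin RNA, the latter pair directed at the kinase gene CDK16. In the Reb experiment, cells without a stated hairpin were given DMSO, 1 μM Reb or 5 μM Reb, a kinase inhibitor, for 48 h. All cells were grown in DMEM with FBS. Each condition had 1 library, so no difference between conditions has a replicate check, and a treated library cannot be told apart from its own culture or preparation. In bulk RNA, fewer expressing cells and less RNA per cell cannot be told apart. The comparisons ask how these genes differed after loss of CDK16 and after Reb, each treated library against the control of its own experiment.

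NRF2, encoded by NFE2L2, is a transcription factor that pairs with a small MAF protein and binds antioxidant response elements (AREs) near its target genes. In unstressed cells KEAP1 presents NRF2 to a CUL3 ubiquitin ligase for destruction, and oxidants or electrophiles that modify KEAP1 let NRF2 accumulate. Its targets make glutathione, reduce thioredoxin, detoxify quinones, degrade heme and store iron, and several cancers carry a lasting activity of this pathway. These data hold mRNA only, so neither NRF2 protein nor its binding was measured.

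The ARE core is shown because it is the element that NRF2 is known to bind at its target genes. Promoter windows of 250 bases before to 50 bases after a gene start were taken from RefSeq on GRCh38.p14, and 7 of the 10 genes matched, with 8 windows. The motif TGACNNNGC, searched on both strands, stood in 3 of the 8 windows, that of GCLM and both of TXNRD1, against 13.35% of all 35116 windows. The matches are printed along the strand of the gene with 10 or more bases on each side, the motif in capitals. A run of capitals that starts with GC is the reverse complement of the motif. The GCLM match is at chr1:93909445-93909474 on the minus strand, with the first motif base 34 bases before the start. The first TXNRD1 start has matches at chr12:104215670-104215699 and chr12:104215761-104215790 on the plus strand, 99 and 8 bases before it. The second TXNRD1 start has a match at chr12:104286920-104286949, 102 bases before it.
GCLM: tacgatttctGCTTAGTCAttgtcttccag
TXNRD1 first start, far match: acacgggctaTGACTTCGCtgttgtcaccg
TXNRD1 first start, near match: gcgtccttcgGCTCCGTCAgttcccacagg
TXNRD1 second start: gtggatttctGCTTTGTCAttctgactctg
A match of these letters is a description of the window and not a measured binding site. The windows of NQO1, GCLC, SRXN1, FTL and OSGIN1 held no match to these letters within the stretch searched.

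Library totals ran from 25838443 to 31955119 counts in the knockdown experiment and from 37655548 to 50303269 in the Reb experiment. CDK16 itself had 3223 counts with the scramble shRNA, 1360 with CDK16-sh1 and 846 with CDK16-sh2. Of the mesenchymal markers VIM, CD44, CAV1 and AXL, each had at least 607 counts in every library, and of the markers this line lacks, ESR1 had at most 12 counts, PGR 16 and CDH1 53. EPCAM had 125 to 408 counts and ERBB2 996 to 3396, so these were not near 0. Of the 5 markers of other cell types, PTPRC had at most 35 counts, COL1A2 8 and ALB 1, while PECAM1 had 4 to 154 and COL1A1 318 to 1279. The library treated with 5 μM Reb stood apart within its experiment. Its mitochondrial transcripts took 16.4% of counts, against 7.19% in DMSO and 8.30% at 1 μM, and its 100 most counted genes took 35.3%, against 24.3% and 24.4%. The CDK16-sh2 library differed from its own experiment in the same direction. Its mitochondrial transcripts took 16.2%, against 11.3% with the scramble shRNA and 10.4% with CDK16-sh1. Its 100 most counted genes took 31.3%, against 25.8% and 25.0%. TMM scaling in edgeR was used, and scaling by library totals instead moved every log2 fold change at 5 μM by about −0.69, so values under both scalings are given where this matters. The part of these library differences in the gene changes was not tested.

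The 10 genes lie on 9 chromosomes. In the deposited tables, on GRCh38, GCLM spans chr1:93885205-93909456, SLC7A11 chr4:138164097-138242349, GCLC chr6:53497341-53616970, FTH1 chr11:61959718-61967660 and SRXN1 chr20:646615-653370, all on the minus strand. TXNRD1 spans chr12:104215779-104350305, FTL chr19:48965301-48966878 and HMOX1 chr22:35380361-35394214 on the plus strand. On chromosome 16 NQO1 spans chr16:69706996-69726951 on the minus strand and OSGIN1 chr16:83948282-83966332 on the plus strand. Counts were made over the exons of each gene.

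The 10 genes spanned a wide range of levels. RPKM, the read count set against gene length and library size, allows levels of different genes to be compared, and by this measure the ferritin subunits led every library. FTH1, the ferritin heavy chain that oxidizes iron for storage, had 576 RPKM with the scramble shRNA, 1071 with CDK16-sh1, 731 with CDK16-sh2, 285 in DMSO, 233 at 1 μM Reb and 746 at 5 μM Reb. FTL, the light chain, had 471, 769, 566, 91.2, 73.4 and 299.7 RPKM in the same order. In the scramble library FTH1 made up 47.8% and FTL 39.1% of the summed RPKM of the 10 genes. NQO1, which reduces quinones, stood at 72.1 to 98.8 RPKM in the knockdown experiment and at 20.1 to 26.1 in the Reb experiment. TXNRD1, the cytosolic thioredoxin reductase, had 7.09 to 30.5 RPKM in the first experiment and 54.5 to 122 in the second. SRXN1, which repairs oxidized peroxiredoxins, stood between 6.93 and 18.3 RPKM. The other 5 genes ran from 0.680 RPKM for GCLC with CDK16-sh1 to 18.7 for GCLM at 5 μM Reb. At the low end neighbours in the order cannot be separated in the scramble and DMSO libraries without replicates, as with HMOX1 and GCLC at 2.18 and 2.09 RPKM in DMSO.

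**Figure D1:**
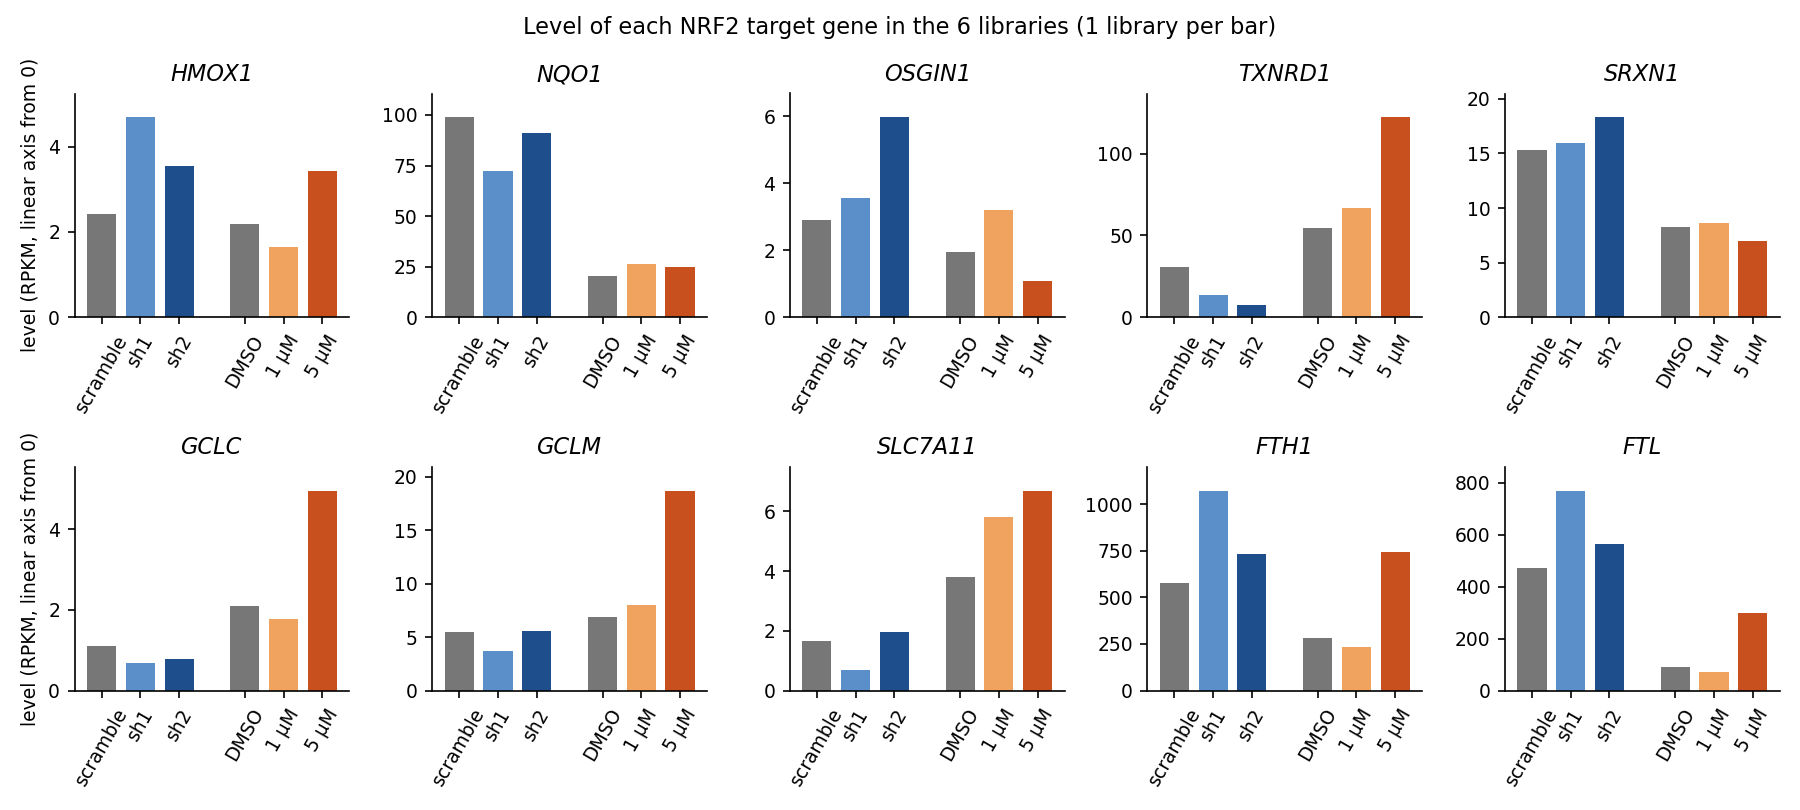
RPKM of the 10 NRF2 target genes in each of the 6 libraries, 1 bar per library. There are no error bars because each condition had 1 library. Each gene has a panel with its own linear axis, so bar heights cannot be compared between genes. FTH1 and FTL had higher RPKM than the other genes in every library, with TXNRD1 at 66.9 RPKM next to FTL at 73.4 at 1 μM Reb.

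At 5 μM Reb, 7 of the 10 genes were at least 2-fold higher than in DMSO and 0 were at least 2-fold lower. Among all 15655 genes with a mean CPM (counts scaled to library size) of at least 1, 23.6% were at least 2-fold higher and 27.2% at least 2-fold lower, so large differences were common in this library. The 7 were FTL, GCLM, FTH1, GCLC, TXNRD1, SLC7A11 and HMOX1. The median log2 fold change of the 10 genes was 1.68, against −0.07 over all genes tested. Scaled by library totals, 5 of the 10 stayed past 2-fold, the background was 11.7% higher and 43.4% lower, and the median of the 10 was 0.99. A rank among all genes does not depend on the scaling, and the 10 genes lay between percentile 47.8 for OSGIN1 and 94.97 for FTL, with HMOX1 at 83.1.

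By TMM scaling GCLC, GCLM and SLC7A11, which serve glutathione synthesis, were past 2-fold at 5 μM. GCLC and GCLM encode the catalytic and the modifier subunit of the ligase that makes the first bond of glutathione. GCLC had 891 counts in DMSO, 743 at 1 μM and 1578 at 5 μM, with a log2 fold change at 5 μM of 1.93 (95% counting interval 1.81 to 2.05) and of 1.24 by library totals. GCLM had 1864, 2142 and 3811 counts, with 2.14 (2.06 to 2.22) and 1.45 by library totals. Their counts were higher at 5 μM although that library was the smallest of the experiment. SLC7A11, the cystine importer that supplies glutathione synthesis, had 1843, 2768 and 2426 counts. Its log2 fold change at 5 μM was 1.503 (1.42 to 1.59), which came to 0.81 by library totals and so under 2-fold. The opposite-strand gene SLC7A11-AS1 shares 865 exon bases, 8.97% of the SLC7A11 length, and its counts were 247 in DMSO, 503 at 1 μM and 740 at 5 μM, or 13.4%, 18.2% and 30.5% of those of SLC7A11, so a part of these reads is uncertain too. Intervals are Clopper-Pearson intervals of counting error alone and do not cover differences between cultures.

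In the thioredoxin branch, TXNRD1 was past 2-fold under either scaling and the direction of SRXN1 turned with the scaling. TXNRD1 had 18390 counts in DMSO, 22160 at 1 μM and 30898 at 5 μM, and its log2 fold change at 5 μM was 1.86 (1.83 to 1.88), or 1.17 by library totals. Among the 10 genes it had the highest RPKM after FTH1 and FTL at 5 μM. SRXN1 had 1127, 1154 and 704 counts, with a log2 fold change of 0.43 (0.29 to 0.57) that turned to −0.26 by library totals. SRXN1 shares 2292 exon bases, 84.95% of its length, with another annotated gene on the same strand, whose counts were 85.3% to 94.6% of those of SRXN1, so the split of reads between this pair is uncertain.

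FTH1, FTL and HMOX1, the iron storage and heme breakdown genes of the 10, were past 2-fold at 5 μM by TMM scaling and below DMSO at 1 μM. FTH1 had 29076 counts in DMSO, 23396 at 1 μM and 57017 at 5 μM, with log2 fold changes of −0.34 (−0.36 to −0.31) and 2.08 (2.06 to 2.10). FTL had 4027, 3180 and 9907 counts, with −0.36 (−0.43 to −0.30) and 2.41 (2.35 to 2.46). HMOX1, the enzyme that opens the heme ring and frees its iron, had 264, 195 and 310 counts, with −0.46 (−0.74 to −0.19) and 1.33 (1.10 to 1.58). The ferritin values at 5 μM stayed past 2-fold by library totals, at 1.39 and 1.72, while HMOX1 came to 0.65. At 1 μM, log2 fold changes fell with rising GC content (Pearson r of −0.31 across 13202 genes, which are not independent replicates). With trends on GC content and gene length removed, FTH1, FTL and HMOX1 at 1 μM came to −0.20, −0.15 and −0.22. At 5 μM they were 2.10, 2.13 and 1.67 with those trends removed. Ferritin has many pseudogenes. Those named FTH1P held at most 0.821% of the FTH1 counts and those named FTLP at most 0.252% of the FTL counts. How reads that match both a parent gene and a pseudogene were counted was not examined. These low counts therefore cannot show that the FTH1 and FTL counts were unaffected. The opposite-strand gene BEST1 shares 1267 exon bases, 62.4% of the FTH1 length, and had 49.6% to 65.9% as many counts as FTH1. Whether the counting used strand is not given in the sources used here, so the part of these reads that belongs to FTH1 is uncertain.

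By TMM scaling NQO1 and OSGIN1 did not pass 2-fold at either dose. NQO1 had 3290, 4189 and 3033 counts and stood just under the threshold at 5 μM, with a log2 fold change of 0.99 (0.92 to 1.06) that came to 0.30 by library totals. With DESeq2 size factors it was 1.05, which made 8 of the 10 genes past 2-fold. At 1 μM it was 0.32 (0.26 to 0.39). OSGIN1, a stress-induced growth inhibitor, had 340, 545 and 142 counts. It was 0.65 (0.46 to 0.86) at 1 μM and −0.15 (−0.44 to 0.14) at 5 μM, and −0.83 at 5 μM by library totals. The value at 5 μM turned to 0.36 with trends on GC content and gene length removed and to 0.15 with trends on expression and length removed. OSGIN1 alone of the 10 had a lower value at 5 μM than at 1 μM under TMM scaling. It shares 481 exon bases, 13.9% of its length, with another annotated gene on the same strand. The counts of that gene were 28.2% of those of OSGIN1 in DMSO, 14.5% at 1 μM and 9.15% at 5 μM. An opposite-strand gene shares 17.7% of the NQO1 length, with 4.22% to 5.42% as many counts in this experiment. The part of these reads that belongs to OSGIN1 and NQO1 is uncertain.

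At 1 μM Reb, 0 of the 10 genes were 2-fold higher or lower, against 1.28% higher and 1.92% lower among all genes. The log2 fold changes lay between −0.46 for HMOX1 and 0.65 for OSGIN1, with a median of 0.09 against 0.00 over all genes. SLC7A11, at 0.56 (0.48 to 0.65), was the next highest after OSGIN1, and TXNRD1 was 0.25 (0.22 to 0.27), GCLM 0.18 (0.09 to 0.27) and SRXN1 0.01 (−0.11 to 0.13). GCLC was −0.28 (−0.43 to −0.14). The 2 doses share 1 DMSO library, and the direct difference of 5 μM from 1 μM in log2 units was 2.77 (2.71 to 2.83) for FTL, 2.42 for FTH1, 2.21 for GCLC, 1.96 for GCLM, 1.79 for HMOX1 and 1.61 for TXNRD1. It was 0.94 for SLC7A11, 0.67 for NQO1, 0.42 for SRXN1 and −0.80 (−1.09 to −0.54) for OSGIN1. These differences are by TMM scaling. By library totals NQO1 was 0.38 at 1 μM and 0.30 at 5 μM, and SRXN1 was 0.06 and −0.26. Both were thus lower at 5 μM than at 1 μM by that scaling, while SLC7A11 was 0.61 and 0.81.

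**Figure D2:**
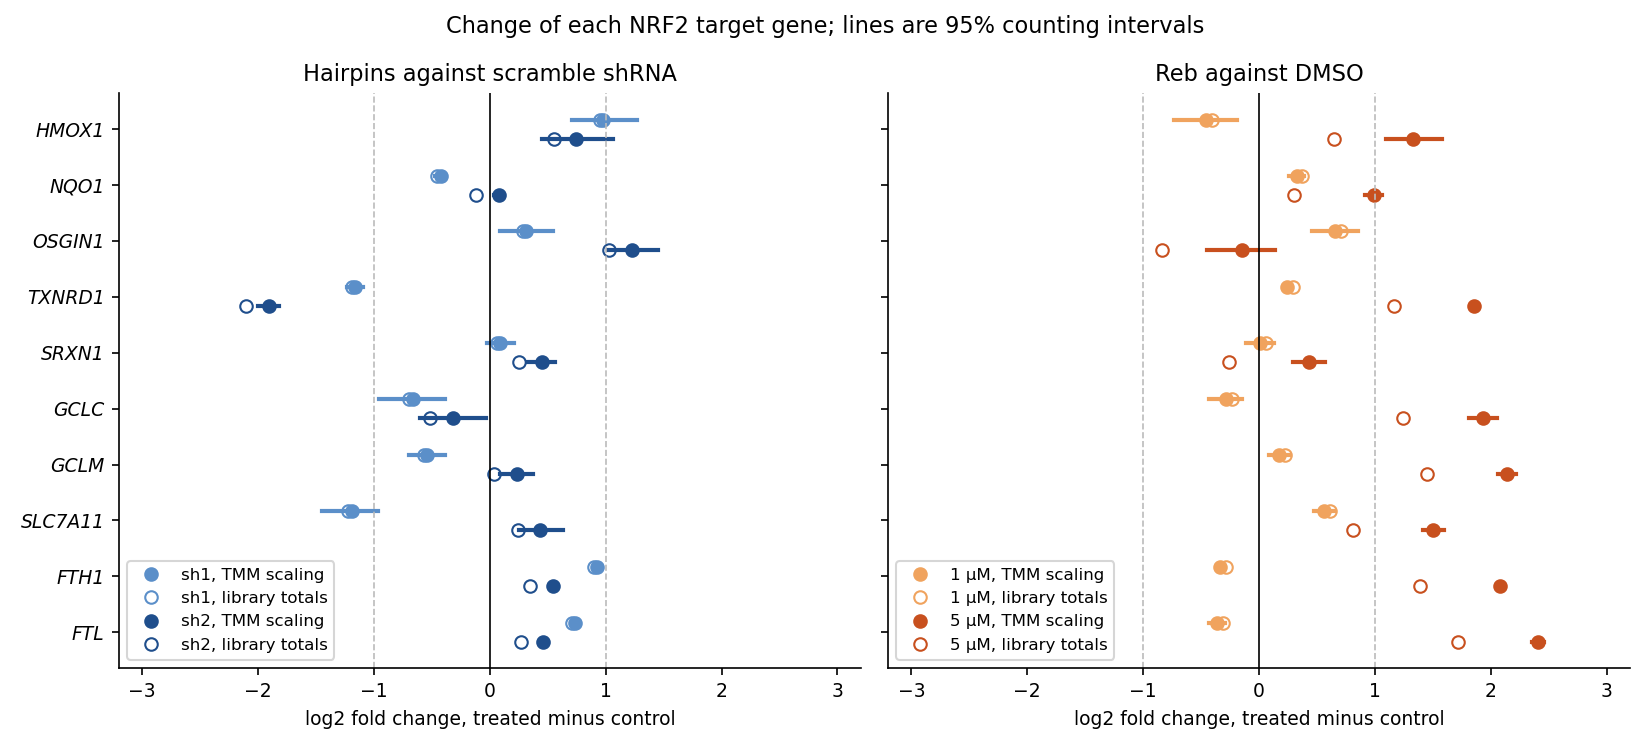
Log2 fold change of each of the 10 NRF2 target genes in the 4 treated libraries against the control library of the same experiment, with 95% counting intervals and dashed lines at 2-fold. At 5 μM Reb 7 genes lie past the upper line, while with the hairpins TXNRD1 lies past the lower line with both, SLC7A11 with CDK16-sh1, and OSGIN1 past the upper line with CDK16-sh2.

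With both doses taken as 1 group against DMSO, so that the difference between doses counted as spread, 0 of the 10 genes were called at an adjusted p of at most 0.05 and 2-fold. The smallest of their adjusted p-values was 1.00 (edgeR, quasi-likelihood test, Benjamini-Hochberg over all genes), and 0 of the 10 had an unadjusted p under 0.05. Of all genes, 0.0767% were called, and DESeq2's Wald test likewise called 0 of the 10. Dose then entered the same edgeR test as a linear term, on the scale of log2 of the μM value plus 1. By this fit, 6 of the 10 were called against 24.5% of all genes. The adjusted p-values were 0.00163 for FTL, 0.00333 for GCLM, 0.00547 for GCLC, 0.0115 for FTH1, 0.0241 for TXNRD1 and 0.0473 for SLC7A11 (edgeR, Benjamini-Hochberg). HMOX1 missed at an adjusted p of 0.0928, NQO1 at 0.2003, SRXN1 at 0.590 and OSGIN1 at 0.815 by the same test. Each of these fits rested on 3 libraries and 1 residual degree of freedom. In the dose fit, run with TMM scaling only, the spread was the departure of the 3 libraries from a line. Its p-values thus do not measure differences between cultures.

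CDK16 knockdown placed few of the 10 genes past 2-fold. With CDK16-sh1, 0 genes were at least 2-fold higher and 2, TXNRD1 and SLC7A11, at least 2-fold lower, against 4.33% and 6.86% of the 15295 genes tested. With CDK16-sh2, OSGIN1 was past 2-fold upward and TXNRD1 downward, against 2.2% and 7.62% of all genes. The medians of the 10 were −0.17 and 0.44, against −0.00 and 0.02 over all genes. TXNRD1 was the gene that was lower past 2-fold with both hairpins.

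TXNRD1 had 5289 counts with the scramble shRNA, 2863 with CDK16-sh1 and 1308 with CDK16-sh2. Its log2 fold changes were −1.16 (−1.23 to −1.10) and −1.91 (−2.00 to −1.82), the latter below all but 1.29% of genes in that library. SLC7A11 had 412, 217 and 518 counts, at −1.19 (−1.45 to −0.96) with CDK16-sh1 but 0.44 (0.25 to 0.63) with CDK16-sh2. The hairpins differed from each other in SLC7A11 by 1.63 (1.41 to 1.87), the widest gap among the 10 genes. With CDK16-sh1, log2 fold changes followed the GC content of the genes (Pearson r of 0.47 across 12940 genes, which are not independent replicates), with a median of −0.40 among the 20% of genes poorest in GC and 0.42 among the 20% richest. SLC7A11 is 38.6% GC and TXNRD1 46.9%, and with trends on GC content and gene length removed their values in CDK16-sh1 came to −0.61 and −0.88, under 2-fold, when 4.35% of all genes were at least 2-fold lower. In CDK16-sh2, where r was 0.11, TXNRD1 was −1.75 with those trends removed.

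The glutathione ligase subunits were within 2-fold of the scramble library with either hairpin. GCLC had 242, 184 and 180 counts, with log2 fold changes of −0.67 (−0.96 to −0.39) and −0.32 (−0.61 to −0.04). GCLM had 766, 638 and 835 counts, with −0.54 (−0.69 to −0.39) and 0.23 (0.09 to 0.37). In terms of RPKM, GCLM exceeded GCLC in every library, by 4.94 times with the scramble shRNA, 5.41 with CDK16-sh1, 7.24 with CDK16-sh2, 3.27 in DMSO, 4.50 at 1 μM and 3.77 at 5 μM.

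FTH1, FTL and HMOX1 were above the scramble library with both hairpins and short of 2-fold. FTH1 had 30193, 69495 and 40809 counts, with 0.93 (0.91 to 0.95) and 0.54 (0.52 to 0.56). FTL had 10680, 21567 and 13662 counts, with 0.74 (0.70 to 0.77) and 0.46 (0.43 to 0.50). HMOX1 had 150, 360 and 235 counts, with 0.98 (0.71 to 1.27) and 0.75 (0.45 to 1.06). These 3 genes have 54.8% to 60.8% GC, and with the GC and length trends removed their values in CDK16-sh1 were 0.56, 0.22 and 0.46. The ratio of FTH1 to FTL in RPKM was 1.22 to 1.39 in the knockdown experiment and 2.49 to 3.18 in the Reb experiment.

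OSGIN1 had 260, 392 and 567 counts, with 0.31 (0.09 to 0.55) in CDK16-sh1 and 1.23 (1.02 to 1.45) in CDK16-sh2. The latter stood above 99.1% of the genes tested and was past 2-fold by library totals too, at 1.03, while the value in CDK16-sh1 turned to −0.0663 with the GC and length trends removed. NQO1 had 8305, 7495 and 8132 counts, with −0.42 (−0.47 to −0.38) and 0.08 (0.03 to 0.12), the second of which turned to −0.12 by library totals. SRXN1 had 1071, 1379 and 1358 counts, with 0.09 (−0.03 to 0.20) and 0.45 (0.33 to 0.57), the first of which turned to −0.16 with the GC and length trends removed. Pooling the hairpins against the scramble library, 0 of the 10 genes and 0% of all genes were called (edgeR, quasi-likelihood test, Benjamini-Hochberg). At an unadjusted p under 0.05 there were 382 genes, and TXNRD1 was the only one of the 10 among them. Its log2 fold change over both hairpins was −1.49 (adjusted p = 1.00, edgeR, quasi-likelihood test). DESeq2's Wald test called 0 genes, with 233 at an unadjusted p under 0.05.

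At 5 μM Reb the transcripts of several regulators of NRF2 were past 2-fold. Of 11 regulators, 4 were at least 2-fold higher and 3 at least 2-fold lower there, against 23.6% and 27.2% of all genes, so the lower count was near the background. By library totals the counts were the same, against 11.7% and 43.4% of all genes. With GC and length trends removed the counts were 5 and 1. NFE2L2, which encodes NRF2, had 2633 counts in DMSO, 2583 at 1 μM and 9789 at 5 μM, with a log2 fold change at 5 μM of 3.00 (2.94 to 3.07), or 2.31 by library totals, above 97.5% of genes. KEAP1, its inhibitor, had 2609, 2440 and 233 counts, with −2.37 (−2.58 to −2.18), or −3.06 by library totals. The transcripts of the factor and of its inhibitor thus stood on opposite sides at 5 μM. At 1 μM they were −0.05 (−0.13 to 0.03) and −0.12 (−0.20 to −0.04), and with the hairpins NFE2L2 was 0.09 and 0.33 and KEAP1 0.76 and 0.20.

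Transcripts of the partners and competitors of NRF2 were also high at 5 μM. The small MAF partners MAFG and MAFK had log2 fold changes of 2.23 and 1.90, and MAFF 0.95. BACH1, a repressor that occupies the same elements, had 1285, 698 and 2574 counts, with −0.90 (−1.04 to −0.77) at 1 μM and 2.11 (2.01 to 2.21) at 5 μM. MAFF was −1.08 (−1.16 to −1.01) at 1 μM, the one regulator past 2-fold at that dose. SQSTM1, the p62 adaptor that binds KEAP1, was −1.10 (−1.17 to −1.02) at 5 μM and the related factor NFE2L1 −1.56 (−1.60 to −1.52). With GC and length trends removed, SQSTM1 came to −0.36 and NFE2L1 to −0.99, both under 2-fold. With CDK16-sh1, SQSTM1 had 19208 counts against 6726 in the scramble library, a log2 fold change of 1.24 (1.20 to 1.28) and the one regulator past 2-fold, while with CDK16-sh2 it was 0.44 and 0 regulators passed. The ligase genes CUL3, RBX1 and BTRC were within 2-fold in all 4 treated libraries by TMM scaling, with BTRC at −0.94 in CDK16-sh2 and −1.14 there by library totals.

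Among neighbouring pathways at 5 μM Reb, the thioredoxin and glutathione lists had members past 2-fold upward and none downward. Of 10 thioredoxin and peroxiredoxin genes, 6 were at least 2-fold higher and 0 lower, with a median of 1.08. TXN, thioredoxin itself and the substrate of TXNRD1, had 2473 counts in DMSO and 5821 at 5 μM, with 2.34 (2.28 to 2.41), and its inhibitor TXNIP was 2.17 (2.05 to 2.29). Of 9 tested genes of glutathione synthesis and use, 5 were higher and 0 lower, with a median of 1.17, among them GPX1, a glutathione peroxidase, at 1.42 and SLC3A2, the partner chain of SLC7A11, at 1.33. By library totals these counts came to 2 and 0 genes higher and the medians to 0.39 and 0.48. By TMM scaling, 23.6% of all genes were at least 2-fold higher and 27.2% lower, with a median of −0.07. By library totals the same values over all genes were 11.7%, 43.4% and −0.75. Of 3 superoxide and peroxide enzymes, SOD1 at 1.38 and CAT at 1.32 were past 2-fold, and 0 by library totals.

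Several detoxifying genes that are also known as NRF2 targets did not share the direction of the 10. Of 14 tested detoxification and export genes, 0 were at least 2-fold higher and 6 lower at 5 μM, with a median of −0.47, and by library totals 0 and 10. Among all genes 23.6% were higher and 27.2% lower past 2-fold, or 11.7% and 43.4% by library totals. CBR3, a carbonyl reductase, had 576 counts in DMSO and 54 at 5 μM, with −2.28 (−2.74 to −1.90). ABCC3, an export pump, was −1.89 (−2.33 to −1.51), and the largest value of the list was that of EPHX1, an epoxide hydrolase, at 0.92 (0.75 to 1.09). The other 4 past 2-fold, named after their values were seen, were TRIM16L at −1.87, CBR1 at −1.76, AKR1C3 at −1.58 and AKR1C1 at −1.14. The 6 NADPH-supplying enzymes had 0 genes past 2-fold in either direction, with a median of −0.11. By library totals 2 of the 6 were at least 2-fold lower, with a median of −0.80, against 43.4% and −0.75 over all genes. With GC and length trends removed 1 was higher.

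Of 10 tested heme and iron handling genes, 2 were at least 2-fold higher at 5 μM and 3 lower, with a median of 0.02, close to the 23.6% and 27.2% of all genes. By library totals 1 was higher and 4 lower, with a median of −0.67, against 11.7%, 43.4% and −0.75 over all genes. NCOA4, the receptor that carries ferritin to the lysosome, had 3074 and 6981 counts, with 2.29 (2.23 to 2.35), and SLC11A2, an iron transporter, was 1.67 (1.48 to 1.88) and 0.98 by library totals. FECH, which inserts iron into heme, was −1.78 (−2.07 to −1.52), and BLVRB, a biliverdin reductase downstream of HMOX1, −1.59 (−1.93 to −1.29). SLC7A11 is also a target of ATF4, the factor of the amino acid stress response. Of 8 genes of that response, 5 were at least 2-fold higher at 5 μM and 0 lower, with a median of 1.33, led by ASNS at 2.02 and SESN2 at 1.82. By library totals 3 were higher and 1 lower, against the same 11.7% and 43.4% of all genes.

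**Figure D3:**
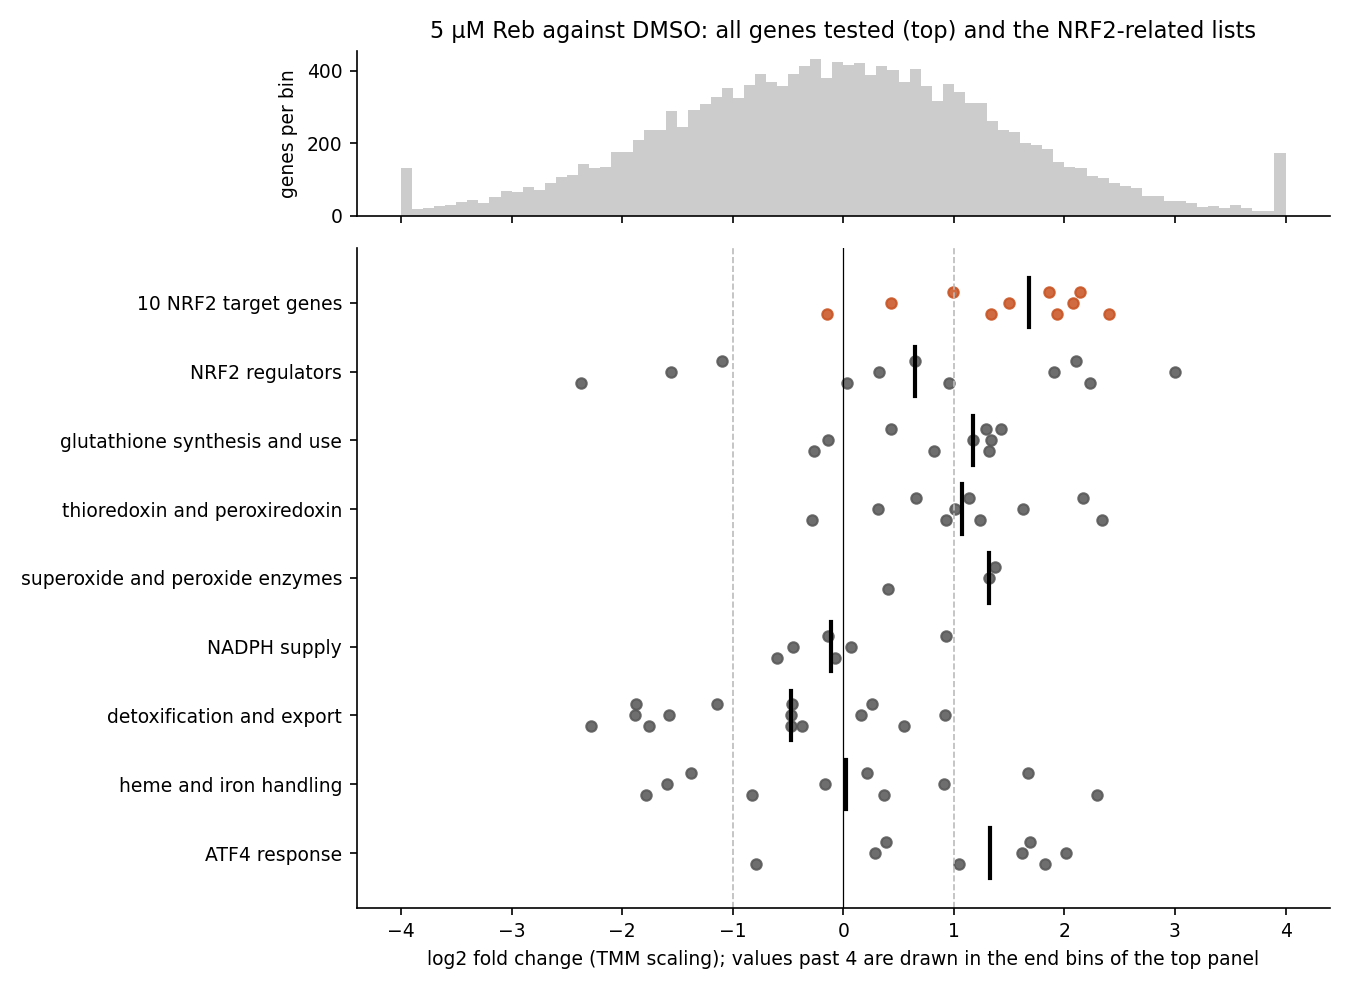
Log2 fold changes at 5 μM Reb against DMSO for the genes of each list, 1 point per gene, with the median of each list as a bar and dashed lines at 2-fold. The upper panel counts all tested genes along the same axis. The 10 NRF2 targets have a median of 1.68, while the detoxification and export genes have a median of −0.47 and the regulators spread from −2.37 (KEAP1) to 3.00 (NFE2L2).

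The 2 control libraries also differed in these genes. The RPKM of NQO1 was 4.91-fold and that of FTL 5.16-fold lower in DMSO than with the scramble shRNA, and FTH1 was 2.02-fold lower. SLC7A11 was 2.30-fold higher in DMSO, GCLC 1.89-fold and TXNRD1 1.79-fold. Past 2-fold were 3 genes lower and 1 higher of the 10, against 13.5% and 8.44% of the 14394 genes tested in both experiments, whose median log2 difference was −0.12. For 6 of the 10 genes the distance between controls by RPKM was larger than their largest TMM-scaled hairpin change. SLC7A11 was among these by a narrow margin, at 1.200 against 1.193. By library totals, the scaling that RPKM uses, its value in CDK16-sh1 was −1.22, larger in size than the distance between controls. For 2 genes, NQO1 and SRXN1, that distance was larger than their TMM-scaled change in any treated library. The share of all genes with such distances was not taken, so whether these counts of 6 and 2 are particular to the 10 is not known. The experiments were counted and scaled separately and their cells were handled differently, so these sources cannot be told apart, and no treated library was compared across experiments.

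**Figure D4:**
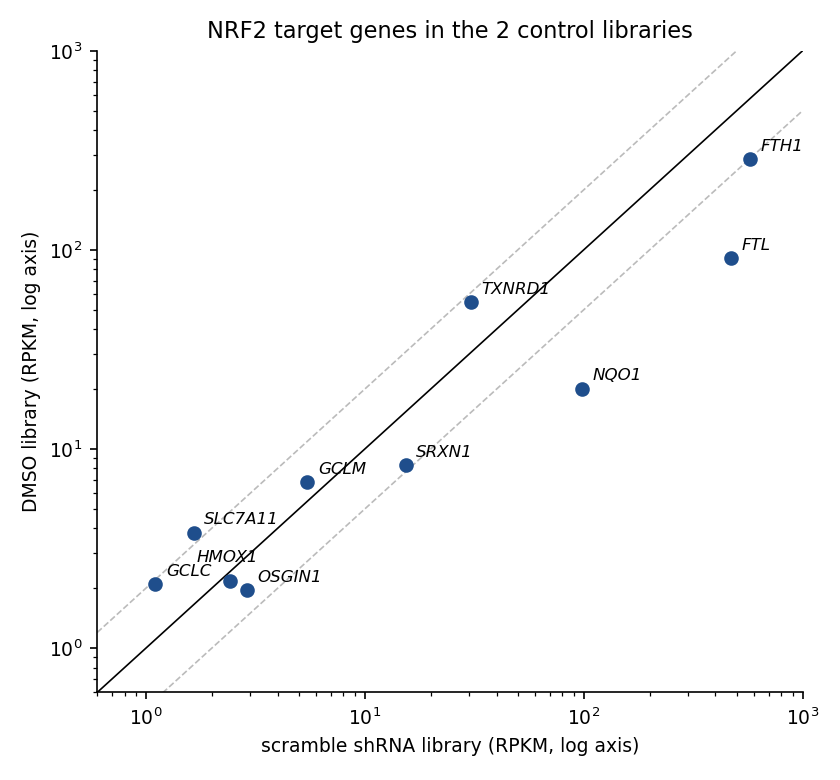
RPKM of the 10 NRF2 target genes in the scramble shRNA library (x axis) and the DMSO library (y axis), both on log axes, with the line of equal level and dashed lines at 2-fold. NQO1, FTL and FTH1 lie below the lower dashed line and SLC7A11 above the upper one.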

How the data were processed

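The authors sequenced stranded mRNA libraries of MDA-MB-231 cells on a HiSeq X 10. The submitters' processing notes name Trimmomatic, featureCounts, Subread 1.5.1 and GRCh38, while the aligner, the annotation release and the strand setting of the counting are not given in the sources used here. The deposited count tables hold the authors' whole-number read counts per gene symbol without normalization, and the deposited RPKM values are these counts over gene length and library total.

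TMM-scaled CPM and log2 fold changes (prior count 2) came from edgeR 4.0.16 in R 4.3.3. Genes whose mean over an experiment's libraries reached 1 CPM were kept. The 2-fold and adjusted p of 0.05 thresholds are those of the study's methods. Groups came from the sample labels, 1 library per condition. For tests, both treated libraries were taken as 1 group against the control (edgeR glmQLFit and glmQLFTest), with DESeq2 1.42.0 as an alternative. The code was tested on simulated counts. Intervals of single genes are 95% Clopper-Pearson intervals on how 2 libraries share a gene's counts. They cover counting error only, because no molecular identifiers separate PCR copies. Library totals were 25838443 to 50303269 counts.

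The alternatives were other scalings, filters, prior counts and thresholds, the authors' RPKM plus 0.1, and removal of trends on mean expression and gene length. Removal of trends on GC content and gene length was added after seeing the data, with GC known for 84.6% and 84.3% of tested genes. The 10 genes, the other lists and the tests were chosen with earlier results of these data known. All 10 genes and all regulators were named. From each other list and treated library, the 2 largest rises and the 2 largest falls were eligible for naming where the mean CPM reached 5.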

Additional observations from a re-analysis of the deposited data

Results flagged for a closer look

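For 3 genes between the hairpins and 4 genes between the Reb doses, the treated libraries lay on opposite sides of their control. These counts take only genes whose counting intervals excluded 0 in both libraries. OSGIN1, at 0.65 and −0.15 (−0.44 to 0.14) at 1 μM and 5 μM Reb, also changed sign but is left out by that rule. The share of all genes with such a change was not taken, so these counts have no background beside them. This difference in direction was not tested, since each condition had 1 library and each pair shared 1 control. Between the hairpins, log2 fold changes in CDK16-sh1 and CDK16-sh2 were −0.42 and 0.0764 for NQO1, −0.54 and 0.23 for GCLM, and −1.19 and 0.44 for SLC7A11. Between the doses, the values at 1 μM and 5 μM Reb were −0.46 and 1.33 for HMOX1, −0.28 and 1.93 for GCLC, −0.34 and 2.08 for FTH1, and −0.36 and 2.41 for FTL. With GC and length trends removed, the values at 1 μM were −0.22 for HMOX1, −0.39 for GCLC, −0.20 for FTH1 and −0.15 for FTL. The sign of NQO1 in CDK16-sh2 depended on the scaling, at −0.12 by library totals.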

How the results depend on the processing

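No paired analysis was possible because each condition had 1 library, and for the same reason no replicate could be left out. The median log2 fold change of the 10 genes at 5 μM Reb came to 0.98 by RPKM, 0.99 by library totals, 1.48 with no filter on low counts and 1.41 with trends on expression and length removed. In CDK16-sh2 the median came to 0.24 by RPKM, 0.25 by library totals and 0.25 with those trends removed. At a 1.5-fold threshold, 1 gene was higher at 1 μM, 3 in CDK16-sh1 and 2 in CDK16-sh2. At 4-fold, 3 were higher at 5 μM and 0 in CDK16-sh2, and 0 were lower in either hairpin. Shares over all genes were taken at 2-fold only, so the counts at 1.5-fold and 4-fold have no background beside them. In CDK16-sh1, 1 gene was lower past 2-fold with the expression and length trends removed and 0 with the GC and length trends removed. A linear term in log2 of the dose plus 1 called 6 of the 10 genes, where the pooled doses called 0. The 12 genes called over the whole table with pooled doses came to 0 by library totals and 3 with no filter. Signs turned for GCLC in CDK16-sh2 (0.0025 with expression and length trends removed), for NQO1 in CDK16-sh2 (−0.12 by RPKM, −0.12 by library totals, −0.14 with those trends removed), for OSGIN1 in CDK16-sh1 (−0.0663 with GC and length trends removed) and for SRXN1 at 5 μM (−0.26 by RPKM and −0.26 by library totals). Of values whose counting interval held 0, OSGIN1 at 5 μM turned to 0.36 with GC and length trends removed and 0.15 with expression and length trends removed, and SRXN1 in CDK16-sh1 to −0.16 and −0.11. A prior count of 0.5 moved no value beyond its counting interval. At 5 μM the scaling changed the values more than counting error did, and the intervals of low-count genes such as HMOX1 and OSGIN1 were wider than those of FTH1.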

Other observations

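Of 11 heme and iron handling genes, 3 were at least 2-fold lower and 1 higher in CDK16-sh1, against 6.86% and 4.33% of all genes tested. TFRC, the transferrin receptor, had 4128 counts with the scramble shRNA, 2012 with CDK16-sh1 and 2565 with CDK16-sh2, with log2 fold changes of −1.31 (−1.39 to −1.24) and −0.58 (−0.65 to −0.51). ACO1, an iron-sensing RNA-binding protein, was −1.23 (−1.32 to −1.14) in CDK16-sh1 and 0.32 (0.24 to 0.39) in CDK16-sh2. The third lower gene, SLC40A1, the iron exporter, was chosen after its values were seen and had 102, 30 and 90 counts. With trends on GC content and gene length removed, TFRC came to −0.84 and ACO1 to −0.94 in CDK16-sh1, under 2-fold. BLVRB was 1.10 in CDK16-sh1 and 0.49 with those trends removed. In CDK16-sh2, SLC48A1, a heme transporter, was past 2-fold at 1.15 (0.91 to 1.41) and 0 genes of the list were lower.

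Outside iron, TXN was −1.19 (−1.27 to −1.11) in CDK16-sh2, the library in which TXNRD1 was lowest, but 0.30 (0.24 to 0.35) in CDK16-sh1. PSAT1, of serine synthesis, was at least 2-fold lower with both hairpins, at −1.07 and −1.70. At 1 μM Reb, where 0 of the 10 NRF2 targets passed 2-fold, IDH1, an NADPH-supplying enzyme, was 1.22 (1.11 to 1.33) and PHGDH, of serine synthesis, 1.14 (1.08 to 1.20).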
